A study of Capra hircus with 14 samples.

Results

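The genes of the proteasome were followed in goat (Capra hircus) cells during a protocol in which fibroblasts are converted directly into cells resembling mammary epithelium with small molecules. Members were the rows of the deposited gene table whose pathway column holds the proteasome pathway entry map03050, which were 64 of 30277 rows. Of these, 45 carry the symbol of a proteasome subunit, regulator or interferon gamma, and 19 are pseudogenes or rows without a gene symbol. The cells of days 1, 2, 3, 4, 6 and 8 had been kept for that many days in R induction medium on Matrigel, renewed at intervals of 2 days, and are labelled CiMEC. The cells of day 0, labelled GEF, were the starting fibroblasts in DMEM with 10% fetal bovine serum. All groups are labelled wild type and each has 2 libraries, 14 in all. Neither the age of the animals nor the contents of the induction medium is given in the labels. Nor do they say that both libraries of a day came from separate cultures, so a p-value reflects how much the libraries of a day vary, and that variation may be technical. No later library of untreated fibroblasts was used, so medium and time in culture cannot be told apart in any comparison with day 0. The time since the last renewal of the medium and the day of induction cannot be told apart either.

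The proteasome is the main protease of the cytosol and nucleus and degrades proteins tagged with ubiquitin. Its 20S core is a stack of rings of alpha subunits, which gate the entry, and beta subunits, of which PSMB5, PSMB6 and PSMB7 carry the proteolytic sites. The 19S regulatory particle binds ubiquitin, removes it and unfolds the substrate with a ring of PSMC ATPases, and its base and lid are built separately. Interferon gamma induces PSMB8, PSMB9 and PSMB10, which take the places of PSMB5, PSMB6 and PSMB7 in the immunoproteasome, and also PSME1 and PSME2, which form the PA28 activator. The immunoproteasome is best known for making peptides for presentation on MHC class I.

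Library totals ran from 20515126 to 24746010 estimated counts, and 15712 genes had enough counts to be tested. Proteasome rows took 0.395% and 0.405% of the counts at day 6, the lowest of all days, against 0.542% and 0.528% at day 0, the highest. Levels are given as CPM, counts relative to the TMM-scaled size of each library. Of the 64 rows, 47 passed the filter on low counts, namely 44 protein-coding genes and 3 pseudogenes. The cells expressed the fibroblast genes VIM, COL1A1 and COL1A2 on all days, and 8 of 8 listed fibroblast markers were found, with summed levels of 14379 and 14714 CPM at day 8 and 28130.4 and 27169.9 CPM at day 0. Within that list THY1 averaged 290.7 CPM at day 8 and 190.7 CPM at day 0, while the others averaged lower at day 8. The basal keratin genes KRT5 and KRT14 were already present at day 0, and the 3 basal markers summed to 39843 and 40701 CPM at day 8 and 8681 and 7821 CPM at day 0. Of the 5 milk protein genes, 4 had 0 counts in all 14 libraries and CSN3 had 1 count in 1 library, so the cells labelled as induced mammary epithelium lacked the milk protein transcripts. All 4 markers of simple or luminal epithelium were found, and their sum was 478 and 479 CPM at day 8 and 2341 and 2179 CPM at day 0. Within that list KRT8 averaged 169.9 CPM at day 8 and 1910.4 CPM at day 0, while CDH1 averaged 215 CPM at day 8 and 110.1 CPM at day 0.

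The pathway was chosen by its genes being lower at day 8 than at day 0, where 35 of the 47 tested members were called lower. Every comparison that uses a day 0 or day 8 library is therefore given as a description. Tests were read only between libraries of days 1 to 6, with edgeR's quasi-likelihood test and Benjamini-Hochberg adjustment over all 15712 genes, and genes with an adjusted p under 0.05 were called. Log2 fold changes are given with their standard errors (SE), and levels by library, n = 2 per day.

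Per kilobase of gene model, the immunoproteasome genes lay well below the constitutive genes they replace. Apart from PSMA8, the core and 19S genes ran from 19.8 CPM per kb for PSMD12 to 166 CPM per kb for PSMB1. Averaged over the 14 libraries, PSME1 (175 CPM per kb), PSMB1 (166 CPM per kb) and PSMB4 (154 CPM per kb) were highest. PSMB5, with the chymotrypsin-like site of the core, stood at 111 CPM per kb, against 20.1 CPM per kb for PSMB8, which replaces it. PSMB6, with the caspase-like site, stood at 119 CPM per kb, against 7.30 CPM per kb for PSMB9. PSMB7, with the trypsin-like site, stood at 96.3 CPM per kb, against 22.5 CPM per kb for PSMB10. The longer gene models PSME4, the PA200 activator, and PSMF1, the inhibitor PI31, had 13.7 and 12.2 CPM per kb. PSMA8, a testis form of an alpha subunit in mouse, reached only 2.19 CPM per kb, and PSMB11, the thymus-specific beta subunit in mouse, 0.0994 CPM per kb.

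**Figure D1:**
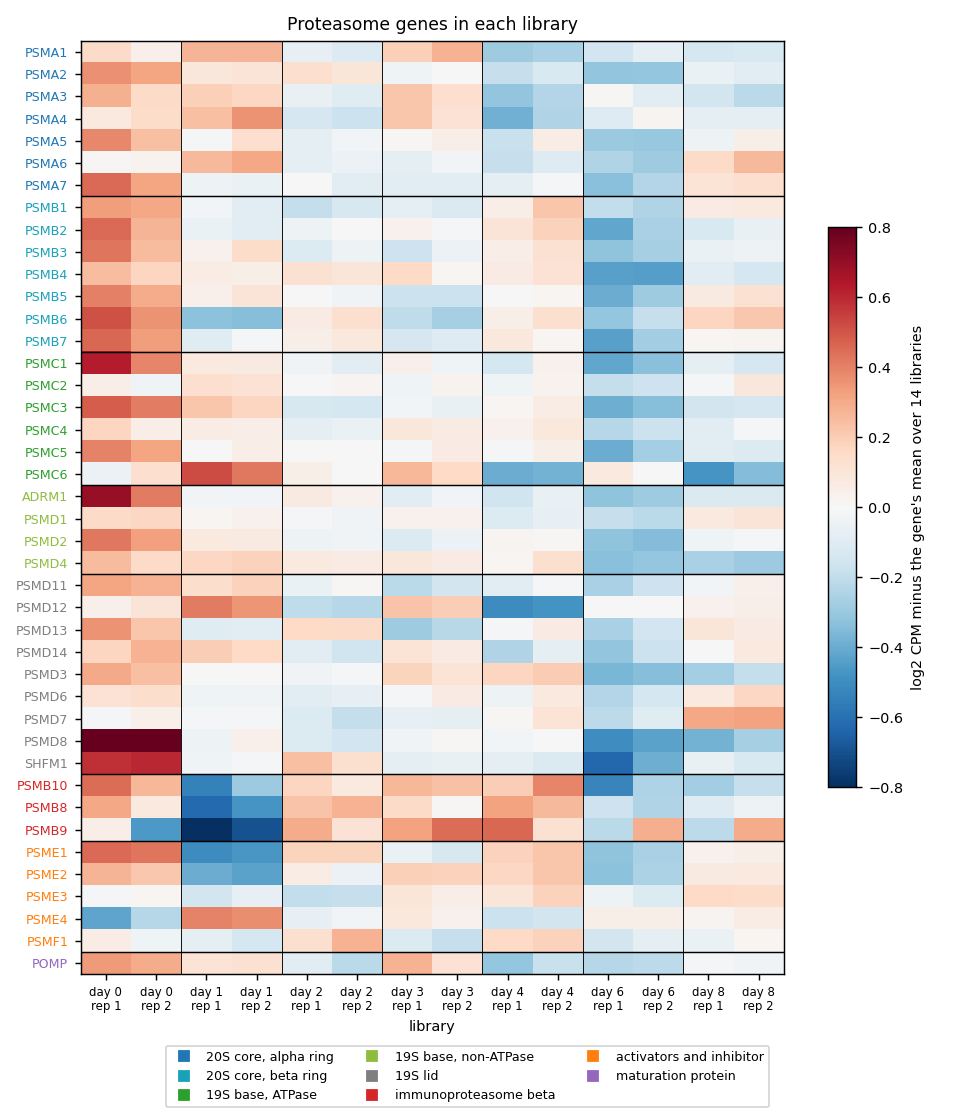
Level of 42 protein-coding proteasome genes (rows, ordered and coloured by class) in the 14 libraries (columns, day 0 to day 8), as log2 CPM minus the gene's mean over the 14 libraries; colours stop at ±0.8, and PSMA8 and PSMB11 are left out for their low counts. Most core and 19S rows are red at day 0 and blue at day 6, while PSMB8, PSMB9, PSMB10, PSME1 and PSME2 are blue at day 1.

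Between day 1 and day 6 nearly all constitutive proteasome genes fell. Of the 34 constitutive core and 19S genes, 32 were lower at day 6, 0 were higher and 2 were not called. The median log2 fold change of the 34 was -0.37. This set includes the low-count PSMA8, a testis form in mouse, which was among the 32. Among all 47 tested members, 34 were lower, where 30.7% of all genes tested were lower, and 3 were higher, where 26.3% of all genes were higher. The members' median was -0.34, against -0.04 over all genes tested. In each of the 37 members called, neither day 6 library overlapped the day 1 libraries. That describes genes already called and adds no support, and the share over all genes was not counted. Markers of other cell types moved in the same comparison: the basal markers summed to 20017 and 21043 CPM at day 6, against 2632 and 2654 CPM at day 1. The fibroblast markers summed to 18850.2 and 18960.4 CPM at day 6, against 30566 and 30686 CPM at day 1, and the luminal markers to 567 and 568 CPM at day 6, against 686 and 677 CPM at day 1. Both lists were mixed. Luminal KRT8 and KRT18 fell, but CDH1 averaged 134.8 CPM at day 6 and 56.7 CPM at day 1, and EPCAM 71.2 and 44.4 CPM. THY1 averaged 310.5 CPM at day 6 and 110.0 CPM at day 1, while the other fibroblast markers fell. The part of any of these cell types in the result was not tested. In RNA from whole cultures, fewer cells that express a gene and less of its RNA per cell cannot be told apart.

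In the alpha ring 8 of 8 genes were lower at day 6, with a median of -0.38. PSMA6 had 61.0 and 59.2 CPM at day 6, against 86.3 and 89.4 CPM at day 1. Its day 6 libraries lay below both day 1 libraries, with a log2 fold change of -0.55 ± 0.06 (adjusted p = 1.87e-08). PSMA7 had 118 and 126 CPM at day 6, against 144 and 143 CPM at day 1, a log2 fold change of -0.23 ± 0.06 (adjusted p = 0.00105). PSMA3 had 83.9 and 78.6 CPM at day 6, against 95.1 and 93.7 CPM at day 1, and its log2 fold change of -0.22 ± 0.06 was the smallest of the ring (adjusted p = 0.00379). The low-count PSMA8 had 1.01 and 1.08 CPM at day 6, against 1.67 and 2.39 CPM at day 1, the lowest fold change of the class at -0.96 ± 0.32 (adjusted p = 0.0125). The calls rested on single libraries in 2 of these genes: PSMA3 was not called without the second day 6 library (log2 fold change -0.17), and PSMA8 was not called without the second day 1 library (-0.67) or the first day 6 library (-0.91).

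In the beta ring 6 of 7 genes were lower, with a median of -0.30. PSMB5 had 114 and 124 CPM at day 6, against 155 and 162 CPM at day 1. The groups were apart, at -0.41 ± 0.05 (adjusted p = 5.74e-07). PSMB4 had 107 CPM in both libraries at day 6, against 151 and 149.5 CPM at day 1, the lowest fold change of the ring at -0.49 ± 0.05 (adjusted p = 3.76e-08). PSMB7 had 72.3 and 80.8 CPM at day 6, against 91.4 and 96.8 CPM at day 1, a log2 fold change of -0.30 ± 0.06 (adjusted p = 0.000239). The exception was PSMB6, the only catalytic core gene not called. PSMB6 had 80.1 and 87.6 CPM at day 6, against 79.2 and 78.4 CPM at day 1, and the log2 fold change was 0.09 ± 0.06 (adjusted p = 0.232); with the gene length trend removed, or with only the libraries of the compared days in the fit, it was called higher, at 0.15 and 0.14. PSMB6 shares reads with the pseudogene LOC102187058: the 2 values summed to a whole count, within 0.015, in 14 of 14 libraries, and PSMB6 held 93.5% to 95.9% of the sum. PSMB1 had 127 and 123 CPM at day 6, against 143 and 136 CPM at day 1, a fold change of -0.16 ± 0.06 (adjusted p = 0.0176) that was not called without the first day 1 library (-0.13) or the second day 6 library (-0.14). Nor was PSMB1 called with RLE size factors or DESeq2 (-0.12 with either) or with the length trend removed (-0.10).

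The 19S base was lower throughout, in 6 of 6 ATPase genes and 4 of 4 of the other base genes. PSMC3 had 109 and 113 CPM at day 6, against 168 and 161 CPM at day 1, the lowest fold change of the ATPases at -0.56 ± 0.05 (adjusted p = 1.09e-09). PSMC1 had 115 and 122 CPM at day 6, against 162 and 161 CPM at day 1, at -0.45 ± 0.07 (adjusted p = 4.39e-06). The least changed were PSMC4 with 72.8 and 75.7 CPM at day 6, against 88.6 and 88.5 CPM at day 1 (-0.25 ± 0.06), and PSMC2 with 102 and 104 CPM at day 6, against 128 and 126 CPM at day 1 (-0.30 ± 0.05). Both ubiquitin receptors of the base fell. PSMD4 had 109 and 111 CPM at day 6, against 154 and 156 CPM at day 1, at -0.50 ± 0.05 (adjusted p = 1.75e-08). ADRM1 had 58.5 and 60.1 CPM at day 6, against 71.8 and 71.9 CPM at day 1, at -0.28 ± 0.07 (adjusted p = 0.00221). The scaffold genes of the base also fell, PSMD2 to 240.1 and 235 CPM at day 6, against 317 and 316 CPM at day 1 (-0.41 ± 0.05), and PSMD1 to 148 and 144 CPM at day 6, against 169 and 172 CPM at day 1 (-0.23 ± 0.05).

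In the lid 8 of 9 genes were lower, with a median of -0.38. PSMD14 encodes the deubiquitinase that cuts ubiquitin chains off the substrate. PSMD14 had 54.4 and 60.2 CPM at day 6, against 77.7 and 75.9 CPM at day 1, at -0.42 ± 0.07 (adjusted p = 8.69e-06). PSMD11 had 89.9 and 95.7 CPM at day 6, against 119 and 122 CPM at day 1, at -0.38 ± 0.06 (adjusted p = 3.13e-06); its product helps to hold lid and core together. The lowest fold changes were those of SHFM1, the smallest lid subunit, and PSMD8. SHFM1 had 41.8 and 49.1 CPM at day 6, against 63.0 and 64.0 CPM at day 1 (-0.48 ± 0.07). PSMD8 had 114 and 119 CPM at day 6, against 156 and 165 CPM at day 1 (-0.46 ± 0.05). At the other end, PSMD13 had 82.9 and 89.3 CPM at day 6, against 92.9 and 93.4 CPM at day 1, which was not called (-0.11 ± 0.06, adjusted p = 0.104). PSMD7 had 114 and 123 CPM at day 6, against 131 CPM in both libraries at day 1, a small fold change of -0.14 ± 0.05 (adjusted p = 0.0284) that was not called without the first day 1 library (-0.14), the second day 1 library (-0.15) or the first day 6 library (-0.09). PSMD7 also lost its call with RLE size factors or DESeq2 (-0.10 with either), a stricter filter on low counts (-0.12), only the libraries of the compared days (-0.09) and the length trend removed (-0.05).

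**Figure D2:**
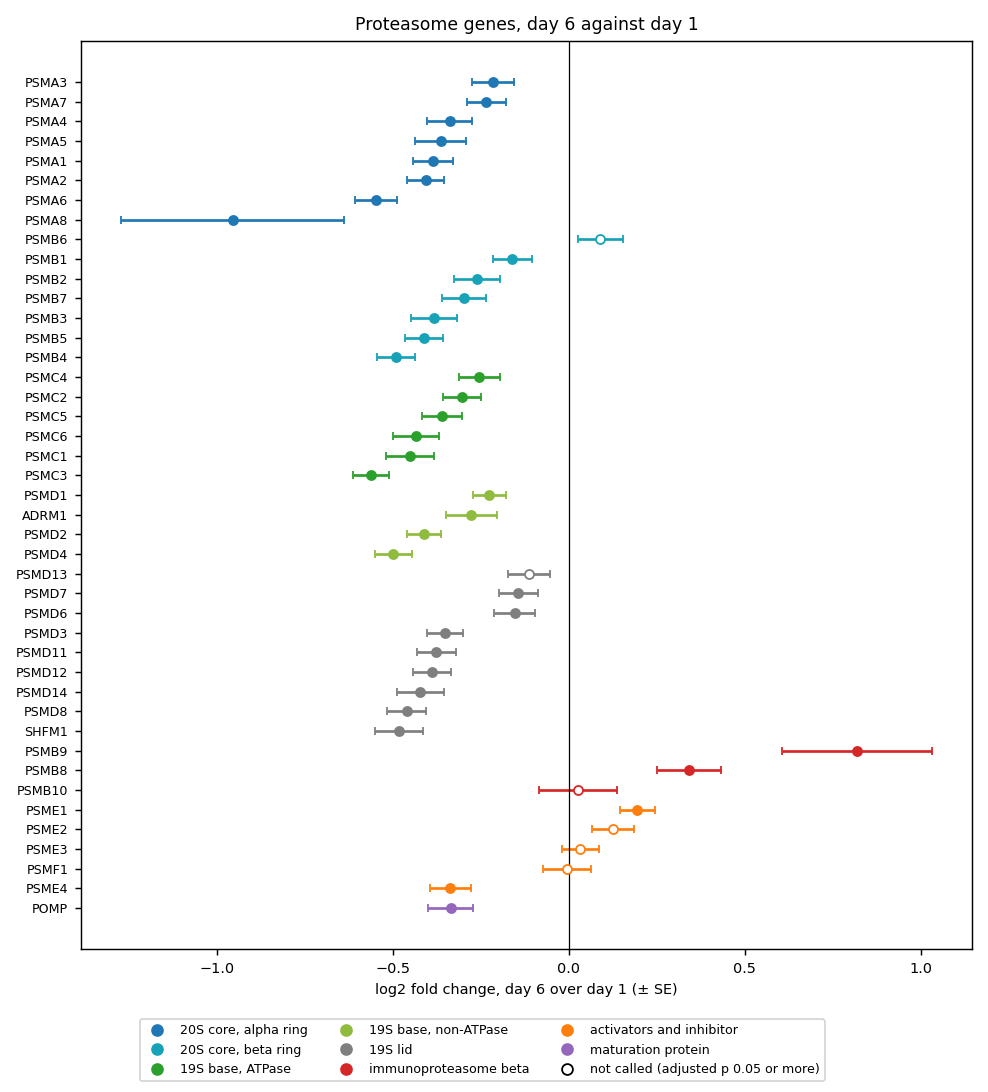
Log2 fold change of day 6 over day 1 with its SE for 43 protein-coding proteasome genes, grouped and coloured by class; open points were not called. The core and 19S genes lie left of 0 apart from PSMB6, and PSMB9, PSMB8 and PSME1 are the called genes on the right (PSMB11, with an SE of 2.12, is left out).

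The genes inducible by interferon were not among those that fell. Of PSMB8, PSMB9, PSMB10, PSME1 and PSME2, 0 were lower and 3 were higher at day 6 than at day 1. PSMB9 had 5.00 and 7.12 CPM at day 6, against 3.29 and 3.58 CPM at day 1. The 2 day 6 libraries lay apart from each other but both above day 1, with a log2 fold change of 0.82 ± 0.21 (adjusted p = 0.00215). It was not called without the second day 6 library (0.54). PSMB8 had 24.1 and 23.0 CPM at day 6, against 17.6 and 19.5 CPM at day 1, at 0.34 ± 0.09 (adjusted p = 0.00291), and was not called without the first day 1 library (0.27). PSME1 had 155 and 162 CPM at day 6, against 137 and 140.2 CPM at day 1, at 0.19 ± 0.05 (adjusted p = 0.00179). PSME2 had 58.4 and 61.3 CPM at day 6, against 55.5 and 54.3 CPM at day 1, which missed the threshold (0.12 ± 0.06, adjusted p = 0.08) but was called higher in 6 alternatives, at 0.14 to 0.22. PSMB10 had 15.3 and 18.6 CPM at day 6, against 15.2 and 18.1 CPM at day 1, with overlapping libraries (0.02 ± 0.11, adjusted p = 0.864).

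Of the other activators, the inhibitor and the maturation protein, PSME4 and POMP fell, and PSME3 and PSMF1 were not called. PSME3, which forms the nuclear PA28 gamma activator, had 147 and 140.3 CPM at day 6, against 137 and 144 CPM at day 1, and was not called (0.03 ± 0.05, adjusted p = 0.616). PSMF1 was not called either, with 47.1 and 49.4 CPM at day 6, against 49.5 and 47.3 CPM at day 1 (0.00 ± 0.07, adjusted p = 0.963). PSME4 fell to 99.9 and 99.95 CPM at day 6, against 127 and 125 CPM at day 1 (-0.34 ± 0.06, adjusted p = 2.33e-05). POMP, the maturation protein that guides assembly of the core, fell to 68.9 and 69.7 CPM at day 6, against 87.1 and 87.9 CPM at day 1 (-0.34 ± 0.06, adjusted p = 8.89e-05). POMP shares reads with the pseudogene LOC102178868, which held 3.36% to 4.83% of their sum.

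The rise of the interferon-inducible genes came between day 1 and day 2, when 5 of 5 were called higher. Of the 34 constitutive genes, 12 were lower at day 2 and 3 higher (median -0.11). Over all members 9 were higher, where 25.3% of all genes were higher, and 15 were lower, where 23.1% of all genes were lower. PSMB8 had 31.7 and 32.9 CPM at day 2, against 17.6 and 19.5 CPM at day 1. The groups were far apart, at 0.80 ± 0.09 (adjusted p = 1.01e-07). PSMB9 had 7.13 and 6.29 CPM at day 2, against 3.29 and 3.58 CPM at day 1, at 0.97 ± 0.21 (adjusted p = 0.000571). PSMB10 had 24.9 and 23.3 CPM at day 2, against 15.2 and 18.1 CPM at day 1, at 0.53 ± 0.11 (adjusted p = 0.000218). Both PA28 genes moved the same way. PSME1 had 219 and 218 CPM at day 2, against 137 and 140.2 CPM at day 1, at 0.66 ± 0.05 (adjusted p = 1.38e-10). PSME2 had 76.2 and 71.0 CPM at day 2, against 55.5 and 54.3 CPM at day 1, at 0.42 ± 0.06 (adjusted p = 2.37e-06). The other members called higher were PSMB6, PSMF1, PSMD13 and SHFM1, at 0.43, 0.31, 0.25 and 0.21.

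Among all genes, short ones were higher at day 2, with medians of 0.14 in the shortest quartile of gene models and -0.10 in the longest, and 35 of the 44 tested members with at least 50 counts in each library fell in the shortest. With that length trend removed, the 5 inducible genes were again all called higher (median 0.52), while 26 members were called lower. Of all genes, 25.9% were then higher and 23.3% lower. Markers of leukocytes, which commonly hold immunoproteasomes, summed lower at day 2 than at day 1. The 7 had 31.5 and 30.7 CPM at day 2, against 52.8 and 51.1 CPM at day 1. Most of that sum was CD14, and PTPRC, which marks leukocytes as a whole, had 0 counts in all 14 libraries. CD3E, ITGAM and CD74 reached at most 8 counts in a library, and the sum had its highest values at day 0 (135 and 134 CPM). The part of these cells in the result was not tested. IFNG, the interferon gamma gene that the pathway also lists, had 0 counts in all 14 libraries, which by counting error alone allows up to 0.121 to 0.146 CPM on unscaled library totals (3 counts per library).

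The ratio of each immunoproteasome gene to the constitutive gene it replaces does not depend on library scaling. It is a ratio of counts, not of molecules, since gene length is not taken into account. PSMB8 stood at 21.1% and 18.6% of PSMB5 at day 6, against 11.4% and 12.1% at day 1, and at 21.1% and 22.3%, 22.6% and 20.5% and 22.6% and 21.4% at days 2, 3 and 4. No library of days 2 to 6 overlapped day 1. PSMB10 stood at 21.1% and 23.0% of PSMB7 at day 6, against 16.6% and 18.7% at day 1, with its highest mean at day 3 (29.7% and 28.5%). PSMB9 stood at 6.26% and 8.15% of PSMB6 at day 6, against 4.17% and 4.60% at day 1, again with the highest mean at day 3 (8.44% and 9.61%). The log2 difference of day 6 from day 1 was 0.76 for PSMB8, 0.71 for PSMB9 and 0.32 for PSMB10. As a description, PSMB8 stood at 16.9% and 15.5% of PSMB5 at day 0, and at 16.0% and 16.1% at day 8. PSMB10 stood at 22.4% and 21.6% of PSMB7 at day 0, and at 18.3% and 19.6% at day 8. For these ratios both day 1 libraries lay below both day 0 libraries. PSMB9 stood at 4.28% and 3.33% of PSMB6 at day 0, and at 4.52% and 6.20% at day 8. An exact permutation test over the 945 ways of pairing the 10 libraries of days 1 to 6 asked whether a ratio differed between days. It gave adjusted p = 0.0381 for PSMB10, 0.0444 for PSMB9 and 0.055 for PSMB8, so 2 of 3 ratios passed. Leaving out 1 library at a time left between 0 and 3 ratios called, and 0 were called without the first day 1 library or any one library of days 2 and 3.

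**Figure D3:**
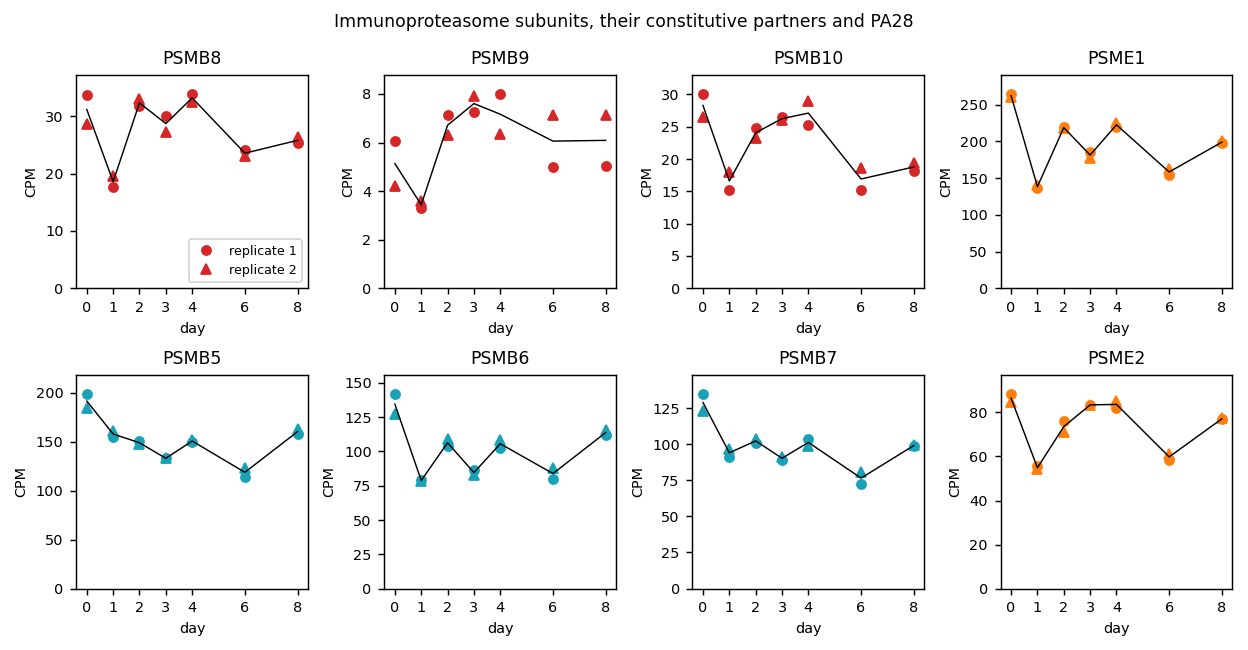
CPM in each library by day (points by replicate, line through the mean of the 2 libraries; vertical axes start at 0) for PSMB8, PSMB9 and PSMB10 above the constitutive genes they replace, PSMB5, PSMB6 and PSMB7, and for PSME1 above PSME2. The upper genes and PSME2 are low at day 1 and higher in each library of day 2. PSMB6 shows the same dip, PSMB7 shows a smaller one, and PSMB5 does not.

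A group of members was lower at days 2 and 4 than at the days before them. These genes were picked out after their values were seen. PSMC6, an ATPase of the base, had 83.6 and 81.0 CPM at day 2, against 116 and 108 CPM at day 1, and 61.4 and 62.1 CPM at day 4, against 97.3 and 90.2 CPM at day 3. Both steps were called, at -0.45 ± 0.07 and -0.60 ± 0.07 (adjusted p = 4.24e-06 and 7.94e-08). PSMD12, a lid gene, had 65.2 and 64.1 CPM at day 2, against 100.3 and 96.0 CPM at day 1, and 53.1 and 54.0 CPM at day 4, against 87.9 and 86.2 CPM at day 3, at -0.60 ± 0.05 and -0.70 ± 0.06. In both genes the libraries of days 2 and 4 lay below those of days 1 and 3. Day 3 was called higher than day 2, at 0.19 and 0.43.

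In all, 9 of 47 members were called lower at both steps, which share no library, where 13.9% of all genes tested were. Beside PSMC6 and PSMD12 they were the alpha genes PSMA1, PSMA3 and PSMA4, PSMD14, PSME4, POMP and the pseudogene LOC102172816. LOC102172816 had few counts, 36 and 17 at day 1, 2 and 13 at day 2, 11 and 27 at day 3, and 3 and 3 at day 4. Its calls carry little weight. The reverse pattern, higher at both steps, held for 5 members, PSME1, PSMF1, PSMB6, PSMB8 and PSMD13, where 16.2% of all genes showed it. Over the 42 protein-coding members with at least 50 counts in each library, the log2 changes of the 2 steps had r = 0.59 (rho = 0.57), and over all 10986 genes with that many counts r = 0.67 (rho = 0.65). This is a correlation across genes, which share libraries, scaling and the trend with gene length, and it was no higher in the members than in all genes.

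**Figure D4:**
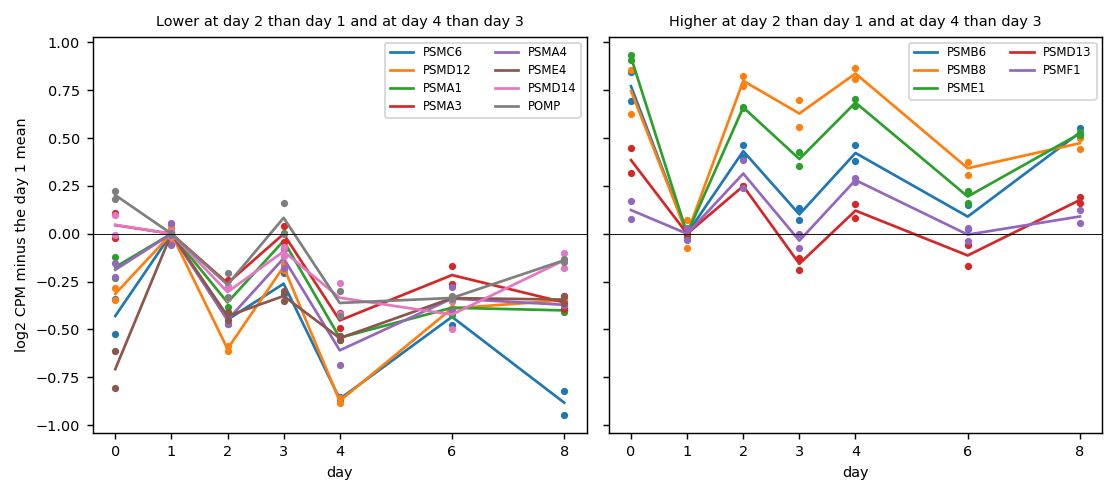
Log2 CPM by day relative to the gene's mean at day 1, as lines through the day means and points for the 2 libraries, for 8 protein-coding genes called lower (left) and 5 called higher (right) at day 2 than at day 1 and again at day 4 than at day 3. The left genes lie lower at days 2 and 4 than at days 1 and 3, and the right genes lie higher.

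Between day 2 and day 3 the members split, with 11 higher, where 21.2% of all genes were higher, and 9 lower, where 24.1% of all genes were lower. PSMD12 and POMP had the 2 highest called fold changes, at 0.43 and 0.35, and PSMD13 and PSMF1 the lowest, at -0.41 and -0.35. Between day 3 and day 4, 10 members were higher and 12 lower, where 28.8% and 21.6% of all genes were. The beta ring had 5 of 7 genes higher and 0 lower at that step, and the alpha ring 0 higher and 4 of 8 lower. PSMB1 had 151 and 169 CPM at day 4, against 138 and 134 CPM at day 3, at 0.24 ± 0.06 (adjusted p = 0.000978). PSMA1 had 72.6 and 73.6 CPM at day 4, against 101 and 107 CPM at day 3, at -0.51 ± 0.06 (adjusted p = 8.93e-08). These counts also rested on single libraries. At day 3 against day 2, 5 members were lower without the first day 2 or the first day 3 library, and 6 were higher without the first day 3 library. At day 4 against day 3, 7 were lower without the first day 4 library and 6 higher without the second day 4 library. The counts moved with the treatment of gene length too. With the trend removed, 25 members were higher and 5 lower at day 3 than at day 2, where 23.5% and 22.8% of all genes were. At day 4, 4 were higher and 17 lower than at day 3, where 27.9% and 23.2% of all genes were.

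From day 4 to day 6 most members fell. At day 6, 32 were lower, where 31.2% of all genes were lower, and 7 were higher, where 23.0% of all genes were higher. The beta ring fell in 7 of 7 genes, with a median of -0.38, and the 5 inducible genes in 4 of 5, PSMB10 to 15.3 and 18.6 CPM at day 6, against 25.3 and 28.9 CPM at day 4 (-0.68 ± 0.11, adjusted p = 7.34e-06). PSMB5 had 114 and 124 CPM at day 6, against 149.9 and 152 CPM at day 4, at -0.34 ± 0.05 (adjusted p = 1.03e-05). The 7 that rose were PSMC6, PSMD12, PSMA1, PSMA3, PSMA4, PSME4 and the low-count LOC102172816. PSMC6 had 85.4 and 80.8 CPM at day 6, against 61.4 and 62.1 CPM at day 4, at 0.43 ± 0.07 (adjusted p = 1.01e-05). Gene length moved with this step over all genes, with medians of -0.24 in the shortest quartile and 0.06 in the longest. With the trend removed, 17 members were lower and 8 higher, where 25.4% and 25.7% of all genes were. From day 1 to day 6 the quartiles lay close together, between -0.09 and -0.05. With the trend removed, 31 members were lower and 5 higher at day 6 than at day 1, where 26.8% and 30.6% of all genes were. The constitutive genes then had a median log2 fold change of -0.28.

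**Figure D5:**
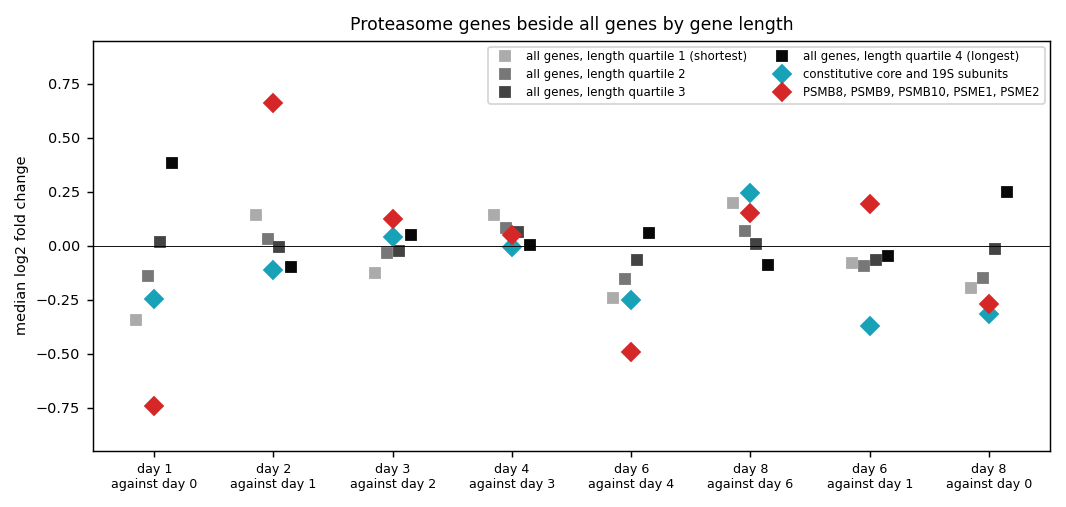
Median log2 fold change of the 34 constitutive core and 19S genes and of the 5 interferon-inducible genes (diamonds), beside that of all genes with at least 50 counts in each library by quartile of gene length (squares, shortest to longest), in 8 comparisons. At day 6 against day 1 the squares lie between -0.09 and -0.05 and the constitutive genes at -0.37; at day 1 against day 0 the squares spread from -0.35 to 0.38.

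The comparisons with day 0 or day 8 libraries follow as a description. At day 1, 32 members were lower than at day 0 and 7 higher, where 34.5% of all genes were lower and 34.8% higher. The members' median was -0.25. With the length trend removed, 16 members (34.0%) were lower and 14 (29.8%) higher, where 33.4% and 34.3% of all genes were. Gene length moved with this step more than with any other comparison given here, with medians of -0.35 in the shortest quartile and 0.38 in the longest, and with the trend removed the constitutive median was 0.00. The inducible genes were low under both, with medians of -0.75 and -0.41. PSME1 had 137 and 140.2 CPM at day 1, against 265 and 259.9 CPM at day 0. PSMB8 had 17.6 and 19.5 CPM at day 1, against 33.6 and 28.7 CPM at day 0. PSME4 stood the other way round, with 127 and 125 CPM at day 1, against 72.1 and 82.4 CPM at day 0.

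At day 8, 31 members were higher than at day 6 and 1, PSMC6, was lower, where 25.6% and 23.2% of all genes were, and the median was 0.23. With the length trend removed, 17 were higher and 4 lower, where 24.3% and 24.3% of all genes were, and the median was 0.09. PSMB5 had 158 and 163 CPM at day 8, against 114 and 124 CPM at day 6. PSMD7 had 163 and 165 CPM at day 8, against 114 and 123 CPM at day 6. PSMC6 had 58.4 and 63.5 CPM at day 8, against 85.4 and 80.8 CPM at day 6. In the contrast that chose the pathway, 35 members were lower and 4 higher at day 8 than at day 0, where 35.0% and 36.0% of all genes were, and the median was -0.29. With the length trend removed, 21 were lower and 6 higher, where 32.3% and 38.2% of all genes were, and the median was -0.09. PSMD8 was the most changed of the abundant genes, with 123 and 133 CPM at day 8, against 313 and 300.0 CPM at day 0. Ordered by the p-values that made those calls, PSMD14 (-0.18) and PSMB11 (-2.32) were just inside the threshold of that contrast. PSMD1 (-0.07) was not called. PSMB11 had 12 and 13 counts at day 0 and at most 5 in any later library. It passed the low-count filter only through day 0, where it was high. Its calls against day 0, among the 35 lower here and the 32 lower at day 1, are therefore no support. At day 8 against day 1, over all members 16 were lower and 12 higher, where 35.0% and 31.8% of all genes were, with a median of -0.08. Of the 34 constitutive genes 14 were lower and 6 higher (median -0.12), and of the 5 inducible genes 0 were lower and 4 higher (median 0.49). With the length trend removed, 24 members were lower and 10 higher (median -0.13), where 33.3% and 34.6% of all genes were.

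Genes that build, regulate or supply the proteasome were taken as lists outside the pathway entry. Their counts at day 6 against day 1 stand beside 30.7% lower, 26.3% higher and a median of -0.04 over all genes tested. Of 8 assembly chaperones, 4 were lower at day 6 than at day 1 and 0 higher (median -0.11). PSMD10, a chaperone of the 19S base, had 35.5 and 35.3 CPM at day 6, against 51.9 and 52.3 CPM at day 1 (-0.56 ± 0.07), and PSMG1, a chaperone of the alpha ring, 26.0 and 23.6 CPM at day 6, against 31.7 and 35.3 CPM at day 1 (-0.43 ± 0.08). PAAF1 and PSMD5 had the highest log2 fold changes, 0.02 and 0.06, and were not called. Of 14 tested ubiquitin ligases, deubiquitinases and shuttle factors that bind the proteasome, 11 were lower and 0 higher (median -0.30). AKIRIN2, needed to import proteasomes into the nucleus, had 31.3 and 31.2 CPM at day 6, against 47.9 and 46.2 CPM at day 1 (-0.59 ± 0.08, adjusted p = 4.44e-07), and ZFAND2A had 10.3 and 10.4 CPM at day 6, against 13.9 and 13.5 CPM at day 1 (-0.41 ± 0.12). UBE3C and UBQLN4 were the highest, at -0.08 and -0.01, and were not called. UBB, a polyubiquitin gene, had 347 and 365 CPM at day 6, against 604 and 621 CPM at day 1, and was called lower. UBA1, the main ubiquitin-activating enzyme, was also lower, at -0.45.

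NFE2L1 (NRF1) is the transcription factor known to raise proteasome genes when proteasome activity is short, and NFE2L2 (NRF2) the related factor of the oxidative stress response. Of 9 tested genes of both factors and their regulators, 6 were lower and 3 higher at day 6 than at day 1 (median -0.29), where 30.7% and 26.3% of all genes were. NFE2L1, named after its values were seen, had 269 and 263 CPM at day 6, against 402 and 389 CPM at day 1 (-0.57 ± 0.05, adjusted p = 2.33e-10). NFE2L2 had 202 and 198 CPM at day 6, against 146 CPM in both libraries at day 1 (0.45 ± 0.05, adjusted p = 3.38e-08), and NGLY1, the enzyme that activates NFE2L1 by removing its sugars, had 33.6 and 32.1 CPM at day 6, against 25.6 and 25.2 CPM at day 1 (0.37 ± 0.07). KEAP1, the inhibitor of NFE2L2, had 62.7 and 64.6 CPM at day 6, against 96.7 and 93.0 CPM at day 1 (-0.58 ± 0.06), and MAFF, a small MAF partner of both factors, had 1.33 and 1.76 CPM at day 6, against 13.2 and 14.6 CPM at day 1 (-3.17 ± 0.17). The 9 NRF2 target genes were also mixed, with 5 lower and 2 higher (median -0.65). HMOX1, heme oxygenase, had 6.60 and 6.71 CPM at day 6, against 56.8 and 60.0 CPM at day 1, and SLC7A11, the cystine transporter, 39.9 and 33.6 CPM at day 6, against 115 and 101 CPM at day 1. NQO1, a quinone reductase, was higher with 96.8 and 92.8 CPM at day 6, against 42.1 and 44.2 CPM at day 1.

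The MHC class I pathway that uses immunoproteasome products had 7 of 11 genes lower and 1 higher at day 6 than at day 1 (median -0.27), where 30.7% and 26.3% of all genes were. The higher one was B2M, the light chain of MHC class I, with 409 and 469 CPM at day 6, against 388 and 405 CPM at day 1 (0.15 ± 0.06, adjusted p = 0.0292). TAPBP was not called (-0.02), PDIA3 had 475 and 452 CPM at day 6, against 713 and 726 CPM at day 1, and NLRC5, the transactivator of MHC class I genes, had 0.321 and 0.225 CPM at day 6, against 0.879 and 0.708 CPM at day 1. At the step where the 5 inducible genes rose, day 2 against day 1, 5 of these 11 genes were higher and 2 lower, where 25.3% and 23.1% of all genes were. From day 4 to day 6, 11 of 11 were lower, where 31.2% of all genes were. Of 15 tested interferon signalling genes, 8 were lower and 3 higher at day 6 than at day 1 (median -0.24). MX2 had 7.06 and 7.48 CPM at day 6, against 2.04 and 1.33 CPM at day 1, and was called higher. IRF2, also called higher, had 32.1 and 33.0 CPM at day 6, against 26.6 and 25.6 CPM at day 1. The lowest log2 fold changes of the list were those of IFI6 and IRF8, both called lower. IFI6 had 21.1 and 24.5 CPM at day 6, against 67.2 and 71.1 CPM at day 1. IRF8 had 0.138 and 0.0901 CPM at day 6, against 1.02 and 1.24 CPM at day 1. At day 2 against day 1 this list had 3 genes higher and 5 lower, with a median of -0.16, where 25.3% of all genes were higher and 23.1% lower. DDI2 and GBP2 were not matched by symbol and were not used here.

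The 3 pseudogenes tested, LOC102172816, LOC102178868 and LOC102187058, had log2 fold changes of -0.72, -0.14 and -0.10 at day 6 against day 1 and were not called. The 17 members that were not tested had few or no reads. The highest count in any library was 11 for LOC102183472, 4 for LOC102188055 and LOC102190223, 2 for LOC102174406 and LOC102178701, and about 1 for LOC102170207 and LOC102169845. The other 10 had 0 counts in all libraries. They were IFNG, the unnamed transcript MSTRG.5606, and LOC102178346, LOC102171799, LOC102184014, LOC102181991, LOC102173889, LOC102180202, LOC102188570 and LOC102186377.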

How the data were processed

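RNA from 14 goat libraries was depleted of ribosomal RNA and sequenced, per the labels' protocols. The authors deposited estimated counts per gene, of which 90.0% are whole numbers. The submitters' processing notes list HTSeq, DESeq2 1.16.1 and FastQC 0.10.1. For the aligner, build, strand setting and the source of the fractions, nothing is stated there. Fractions can split reads between a gene and its pseudogenes. No sequences or coordinates are given because no genome of a named build was used here.

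Estimated counts were rounded and tested with edgeR 4.0.16 (R 4.3.3, limma 3.58.1): TMM scaling, filterByExpr by day, 1 quasi-likelihood model for the 14 libraries with days as groups, 7 residual degrees of freedom, a common biological coefficient of variation of 0.0455, 2-sided F tests and Benjamini-Hochberg adjustment over 15712 genes. SE is the absolute log2 fold change over the square root of F. DESeq2 1.42.0 was an alternative. Ratios used a pseudocount of 0.5. On simulated data the fit was checked before use. CPM are relative, so a change in a few abundant genes shifts all others, which the RLE alternative bears on.

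Members, lists and tests were chosen with earlier results of these data known. Named were the catalytic, activator, receptor and assembly genes, the 2 lowest and 2 highest members per class and genes per list at day 6 against day 1, and untested members. Others were named after their values were seen, and some listed genes are not reported here. The removal of a smooth trend of log counts with gene length was chosen after seeing the data.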

Additional observations from a re-analysis of the deposited data

How the results depend on the processing

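Alternatives were counted for the changes of day 6 against day 1 in the named members and partner ratios. Each case is a gene or ratio under a single alternative setting. Of these cases, 750 kept their status as called or not called, 29 lost their call and 10 gained one. Changes of sign in genes that were not called, such as PSMB10 and PSMF1 with changes near 0, are not given here. Named values of other comparisons and of the lists outside the pathway were not counted here. The 34 members lower at day 6 than at day 1 were 31 with RLE size factors, DESeq2 or the gene length trend removed, 32 with only the compared days, and 31 to 34 when 1 library was left out. The count of higher members there was 5 with only the compared days and 5 with the length trend removed.

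The steps moved more. At day 2 against day 1, 24 members were lower with only the compared days and 26 with the length trend removed (11 to 20 without 1 library). At day 3 against day 2, lower members were 5 with the length trend removed (5 to 9 without 1 library, the fewest without the first day 2 or first day 3 library) and higher ones 25 (6 to 14, the fewest without the first day 3 library). At day 4 against day 3, higher members were 5 with only the compared days, 6 with DESeq2 and 4 with the length trend removed (6 to 12 without 1 library, the fewest without the second day 4 library), and lower ones 7 to 12 without 1 library, the fewest without the first day 4 library. At day 6 against day 4, lower members were 17 with the length trend removed (25 to 33 without 1 library).

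Medians with the length trend removed were -0.058 for day 1 against day 0, 0.090 for day 8 against day 6, -0.093 for day 8 against day 0 and -0.13 for day 8 against day 1. Without 1 library they ran from -0.32 to -0.22, 0.21 to 0.27, -0.34 to -0.24 and -0.11 to -0.060. For day 8 against day 1 the median was -0.040 with RLE size factors, -0.048 with only the compared days and -0.039 with DESeq2. The number of partner ratios called ran from 0 to 3 without 1 library.

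Replicate numbers showed no consistent positive pairing of the samples. Correlations of same-numbered deviations ran from -0.31 to 0.15 over 21 pairs of days. They cannot show whether same-numbered libraries came from related cultures. With a replicate block, 34 members were lower at day 6 than at day 1 and 32 at day 6 than at day 4, and 3 ratios passed. Apart from the stated exceptions, the cause of a shift was not tested. Genes with few counts, such as PSMB9, PSMA8 and PSMB11, are limited by depth.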
